A study of Mus musculus with 12 samples.

Results

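Of the 29608 gene names on the array, 10 belong to the core of the circadian clock and are described here: *Per1*, *Per2*, *Per3*, *Cry1*, *Cry2*, *Arntl*, *Clock*, *Nr1d1*, *Nr1d2* and *Dbp*. They were chosen by name, from all non-control probes of the array, and 15 of its 39429 probes carry one of these names. Hippocampal RNA of 12 adult female mice, about 12 weeks old, was measured, with 4 mice in each of the phenotypes MRL/lpr, Fn14ko and MRL/MpJ (the last being the MRL/+ control of the study). MRL/lpr mice carry the lpr mutation of *Fas* and develop lupus-like disease. The Fn14ko mice (Fn14koMRL in the labels) carry lpr too and in addition lack Fn14, the receptor of TWEAK encoded by *Tnfrsf12a*, on a backcross to that strain. MRL/MpJ mice are the related strain without lpr. MRL/lpr and Fn14ko mice were littermates bred at one site and MRL/MpJ mice were bought from another, so that source and lpr cannot be told apart. All mice were kept in 12 h of light and 12 h of dark and were killed at diestrus, and the hour of the day at which each mouse was killed is not given in the sources used here. The labels give hippocampus as the tissue, although a free-text field of theirs speaks of cortex. The question asked of these genes is whether the samples of the 3 phenotypes stood at different phases of the clock.

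The circadian clock is a feedback loop of transcription that runs in nearly every cell. The proteins of *Arntl* (also known as Bmal1) and *Clock* bind E-boxes in the promoters of the *Per*, *Cry* and *Nr1d* genes and of *Dbp*, and the PER and CRY proteins then inhibit their own activators. In the other loop the NR1D1 and NR1D2 proteins (REV-ERB alpha and beta) repress *Arntl* through ROR elements, so that transcripts of *Arntl* peak when those of *Nr1d1* and *Dbp* are low. *Dbp* encodes a PAR bZIP factor that drives output genes through D-boxes, and it is among the transcripts with the widest daily swing. The suprachiasmatic nucleus sets the phase of clocks in other brain regions, the hippocampus included.

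The probes that carry the results are shown by their first 30 bases of 60, as the array files give them. *Dbp* has 2 probes, on mm9 at chr7:52965461-52965520 and chr7:52965322-52965381, *Per1* has 2, at chr11:68923364-68923423 and chr11:68919895-68919954, and *Nr1d1* has 1, whose 60 bases span chr11:98630526-98631028. The last of these spans 503 bases, more than the length of the probe. The files do not say which part of a gene a probe lies in.
Dbp A_55_P2032079: tggggaacccatccatccaaccgcctccat
Dbp A_55_P2032081: atggccagtggtctggccagctaggtgccc
Nr1d1 A_51_P223776: ggcacctttgaggtgctgatggtgcgcttt
Per1 A_55_P1970033: gtgttctcagctctaccctctaccaatgac
Per1 A_55_P2019327: ttagtgtttcagggcagtagaggtggccgg

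The 250 bases before the RefSeq start of 4 members are shown next, since these are the genes whose regulation by E-boxes and ROR elements defines the loops described above (GRCm38.p6, gene strand, 5′ to 3′). Capitals mark the E-box CACGTG and the letters TNGGTCA, where N is any base, each searched on both strands. TNGGTCA is looser than the core of a ROR element. The stretches it marks, with T or C at N, are not shown to be ROR elements. The windows are chr7:45704997-45705246 for *Dbp* (plus strand), chr11:98775378-98775627 for *Nr1d1* (minus strand), chr11:69098699-69098948 for *Per1* (plus strand) and chr7:113207215-113207464 for *Arntl* (plus strand).
Dbp: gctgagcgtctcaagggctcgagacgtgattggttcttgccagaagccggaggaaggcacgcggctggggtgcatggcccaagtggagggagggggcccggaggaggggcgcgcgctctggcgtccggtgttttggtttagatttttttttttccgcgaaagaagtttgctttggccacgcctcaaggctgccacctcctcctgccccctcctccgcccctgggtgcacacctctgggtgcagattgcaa
Nr1d1: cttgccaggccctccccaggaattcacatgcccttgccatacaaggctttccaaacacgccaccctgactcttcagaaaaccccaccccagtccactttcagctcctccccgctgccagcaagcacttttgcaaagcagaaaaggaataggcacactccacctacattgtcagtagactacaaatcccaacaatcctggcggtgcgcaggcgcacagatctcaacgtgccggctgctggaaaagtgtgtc
Per1: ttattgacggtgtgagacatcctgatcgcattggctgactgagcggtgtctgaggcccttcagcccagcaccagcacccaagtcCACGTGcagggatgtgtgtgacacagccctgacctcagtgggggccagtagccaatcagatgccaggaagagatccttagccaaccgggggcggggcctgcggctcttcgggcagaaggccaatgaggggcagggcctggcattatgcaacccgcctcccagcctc
Arntl: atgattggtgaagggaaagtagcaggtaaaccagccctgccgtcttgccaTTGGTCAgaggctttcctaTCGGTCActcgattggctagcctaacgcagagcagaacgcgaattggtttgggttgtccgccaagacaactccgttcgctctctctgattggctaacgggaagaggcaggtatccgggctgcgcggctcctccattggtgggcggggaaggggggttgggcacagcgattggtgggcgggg
An E-box was found in 2 of the 9 members with a RefSeq window, *Per1* and *Cry1*, and in 6.86% of all 27025 genes with one, where a gene counts once if any of its windows of this length holds the motif. The loose pattern TNGGTCA was found in 3 of 9 members, *Arntl*, *Per3* and *Cry2*, compared with 10.5% of all genes. This is no count of ROR elements. The D-box TTANNTAA was found in 1 of 9, *Per3*, compared with 6.30%. *Per2* has no entry in the table used. The windows of *Dbp* and *Nr1d1* held none of the 3 motifs, which says only that these letters are not in these 250 bases.

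The 12 samples were hybridized to 6 arrays read in 2 colours, 2 mice of the same phenotype on each, with odd-numbered replicates in Cy3 and even-numbered ones in Cy5. The arrays of each phenotype had a slide and a scan session of their own, so that slide and scan cannot be told apart from phenotype. The precision is limited by the number of arrays. The array of MRL/lpr replicates 3 and 4 was weak, where the median spot had a foreground of 1.93 and 1.73 times its background, and the remaining 10 samples ranged from 4.42 to 12.6. In MRL/MpJ replicates 2 and 4, both in Cy5, the median foreground of the negative controls was 208 and 211, compared with 33.2 to 90.6 elsewhere, and 29.6% and 31.8% of probe spots were well above background. With the weak array included only *Per1*, *Dbp* and *Cry2* have a spot valid in all 12 samples, and the other 7 members were taken from the same fit with no filter on dim spots. Outside the weak array all members but *Per3* were valid. Each level is a multiple of the channel median over the spots valid in the samples used, so levels from 12 and from 10 samples differ in scale, and levels of different genes are not compared. The targeted gene, *Tnfrsf12a*, was 0.177, 0.160, 0.189 and 0.151 times the channel median in Fn14ko replicates 1 to 4, 0.439, 0.307, 0.241 and 0.247 in MRL/lpr and 0.283, 0.629, 0.503 and 0.502 in MRL/MpJ. All 4 Fn14ko mice lay below all others, although their 4 spots for it stood well above background. Its log2 fold change from MRL/MpJ was −1.45 (standard error 0.32, limma adjusted p = 0.0972) in 12 samples and −1.20 (0.20, 0.00469) in the 10 outside the weak array, where the highest Fn14ko mouse (0.771) again lay below the lowest of the others (1.09). Whether its probe lies in the removed part of the gene is not given in the sources used here, so that it is no full check of the labels.

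*Dbp* was lower in MRL/lpr mice than in Fn14ko and MRL/MpJ mice. In multiples of the channel median it was at 2.85, 2.48, 3.47 and 2.35 in MRL/lpr replicates 1 to 4, 4.80, 4.74, 6.12 and 4.73 in Fn14ko and 5.73, 4.08, 6.03 and 4.16 in MRL/MpJ. Every MRL/lpr mouse lay below every mouse of the other phenotypes, and Fn14ko and MRL/MpJ mice overlapped. Group means came to 2.79 ± 0.50, 5.10 ± 0.681 and 5.00 ± 1.02 (SD over 4 mice). Compared with MRL/MpJ, *Dbp* fell by 0.84 on the log2 scale in MRL/lpr (standard error 0.20), a level 1.78-fold higher in MRL/MpJ, with an adjusted p of 0.0293 from limma and p = 0.0286 in an exact permutation test, the smallest that 4 mice against 4 can give. Compared with Fn14ko it fell by 0.88 (0.20, adjusted p = 0.0349), and the exact permutation p was again 0.0286. Between Fn14ko and MRL/MpJ the log2 difference was 0.04, with a 95% confidence interval of −0.39 to 0.47 (adjusted p = 0.952). The MRL/lpr difference from MRL/MpJ was −0.90 within Cy3 and −0.77 within Cy5, and that from Fn14ko −0.78 and −0.97. Without the weak array the log2 fold changes were −0.72 (0.22, adjusted p = 0.0456) and −1.02 (0.22, adjusted p = 0.0160). These fits and the permutation test take the mice as independent, although mice of a phenotype shared arrays in pairs. With the array as a random block neither difference passed (limma adjusted p = 0.298 and 0.276). The correlation between mice of an array was there estimated at 0.71, the weak array included. The call against MRL/MpJ was also lost without MRL/lpr replicate 3, Fn14ko replicate 2 or 4, or any 1 MRL/MpJ mouse (adjusted p = 0.0509 to 0.0898), and the call against Fn14ko without any 1 mouse other than MRL/lpr replicate 1 or 2 (0.0577 to 0.136).

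The 2 *Dbp* probes did not agree on the size of the difference. The first, A_55_P2032079, was at 2.18, 2.46, 2.61 and 2.27 times the channel median in MRL/lpr, 4.91, 5.47, 5.73 and 5.38 in Fn14ko and 5.71, 5.86, 6.09 and 6.49 in MRL/MpJ. On this probe the replicates of each phenotype lay close together, the weak array included, and MRL/lpr was lower than MRL/MpJ by 1.35 and than Fn14ko by 1.17 on the log2 scale (exact permutation p = 0.0286 each). The other, A_55_P2032081, was at 3.52, 2.5, 4.33 and 2.44 in MRL/lpr, 4.69, 4.01, 6.51 and 4.08 in Fn14ko and 5.74, 2.30, 5.96 and 1.83 in MRL/MpJ. Here the 2 MRL/MpJ mice in Cy5 lay below all 4 MRL/lpr mice, and every Cy5 sample lay below the Cy3 sample of its array. On this probe MRL/lpr differed from MRL/MpJ by −0.16 (exact permutation p = 0.771) and from Fn14ko by −0.61 (exact permutation p = 0.0857), with overlap in both.

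*Nr1d1*, which encodes the repressor REV-ERB alpha, had the widest gap between MRL/lpr and MRL/MpJ among the 10 members in 12 samples. On the same scale it was at 0.379, 0.293, 0.360 and 0.271 in MRL/lpr, 0.467, 0.396, 0.886 and 0.423 in Fn14ko and 1.16, 1.9, 1.63 and 1.32 in MRL/MpJ. The 3 phenotypes did not overlap in any pair, with Fn14ko between the others and its replicate 3 nearest to MRL/MpJ. Group means came to 0.326 ± 0.0520, 0.543 ± 0.231 and 1.5 ± 0.328 (SD over 4 mice). *Nr1d1* fell by 2.19 on the log2 scale in MRL/lpr compared with MRL/MpJ (standard error 0.28, limma adjusted p = 0.00125), 4.57-fold higher in MRL/MpJ, by 0.67 compared with Fn14ko (0.28, adjusted p = 0.150), and by 1.52 in Fn14ko compared with MRL/MpJ (0.28, adjusted p = 0.0540). Only the first of these passed the threshold in 12 samples, while the exact permutation p was 0.0286 for each. Only the 2 MRL/lpr mice of the weak array had this probe not well above background. Without that array, where its spot is valid, *Nr1d1* was 1.43 and 1.10 in MRL/lpr, 1.85, 1.57, 3.61 and 1.69 in Fn14ko and 4.47, 5.17, 6.42 and 4.08 in MRL/MpJ. There it fell by 1.98 in MRL/lpr (0.27, adjusted p = 0.00106) and by 1.27 in Fn14ko (0.22, adjusted p = 0.00536) compared with MRL/MpJ. The difference of MRL/lpr from MRL/MpJ was −1.9 within Cy3 and −2.49 within Cy5. It was past the threshold under 24 of 28 alternatives, including the array as a random block (limma adjusted p = 0.0273). The 28 include fits that leave out 1 mouse and the fit with no filter, which for this gene is the reported fit. This difference was not past the threshold with negative-control background (0.0909) or with the test named in the study's methods (0.344). Nor was it within the Cy3 or Cy5 samples alone (0.296 and 0.116). The difference of Fn14ko from MRL/MpJ was past it under 9 of 28. The scale of the no-filter table was chosen after its values had been seen. When it was scaled to the median of all spots instead, MRL/lpr against Fn14ko came to −2.12 (adjusted p = 0.0320) and Fn14ko against MRL/MpJ to −0.61 (adjusted p = 0.596), so how near Fn14ko lay to each of the other phenotypes depends on this scale in 12 samples.

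**Figure D1:**
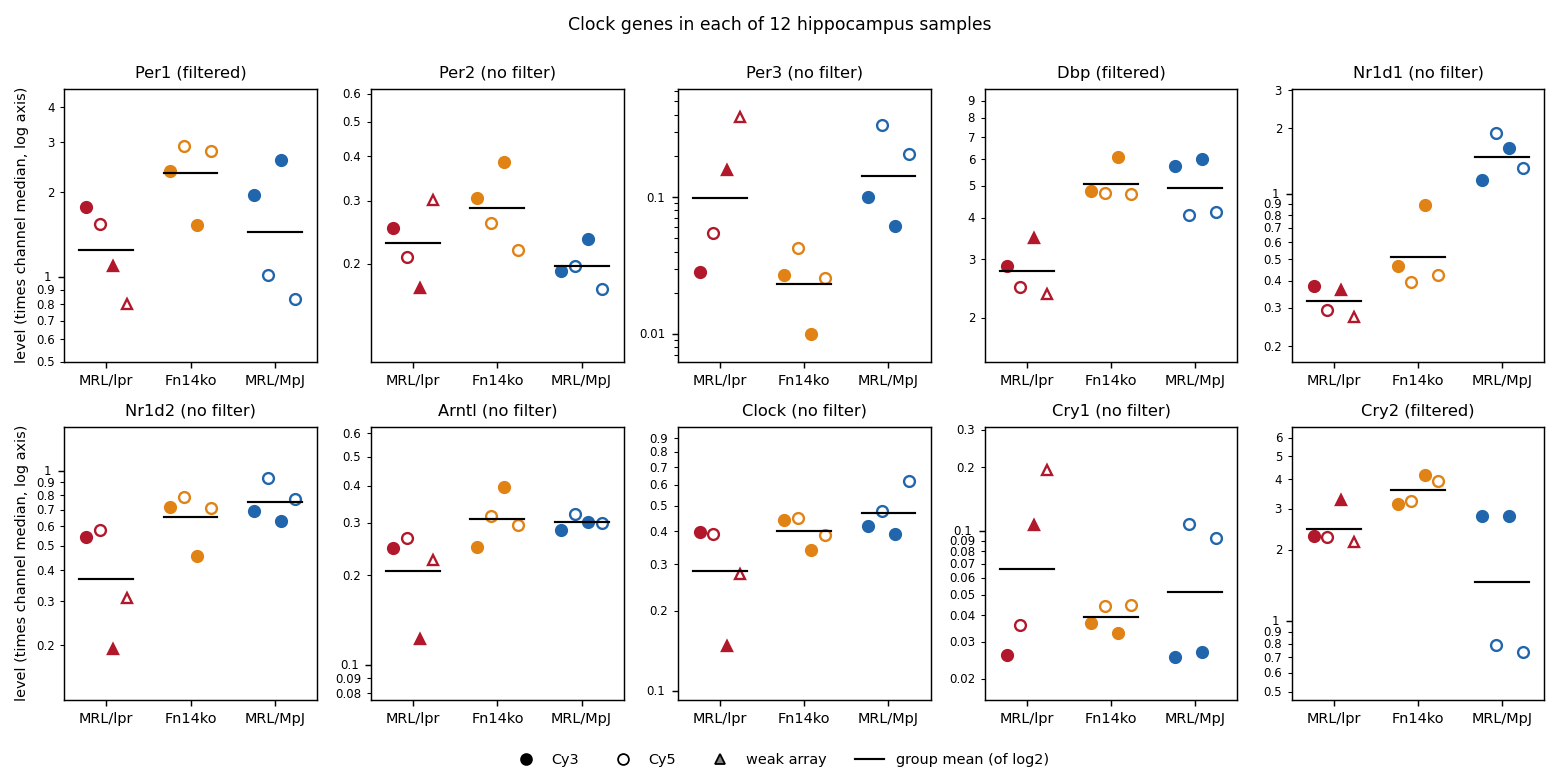
Level of each of the 10 clock genes in each of 12 samples, in multiples of the channel median on a log axis, by phenotype. Filled points are Cy3, open points Cy5, triangles the weak array and lines the group means of the log2 values. For *Dbp* all MRL/lpr mice lie between 2.35 and 3.47 and all others at 4.08 or above, and for *Nr1d1* the MRL/MpJ mice lie between 1.16 and 1.9 and all others at 0.886 or below.

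*Nr1d2*, the paralog of *Nr1d1* that encodes REV-ERB beta, did not pass the threshold in any comparison. It was at 0.543, 0.578, 0.194 and 0.309 in MRL/lpr, 0.720, 0.788, 0.454 and 0.708 in Fn14ko and 0.691, 0.938, 0.628 and 0.771 in MRL/MpJ. The MRL/lpr mice lay below all MRL/MpJ mice, the 2 on the weak array furthest. The log2 fold change between them was −1.02 (standard error 0.32, limma adjusted p = 0.109) in 12 samples but −0.26 (0.20, adjusted p = 0.397) in the 10 outside the weak array. Between Fn14ko and MRL/MpJ, it was −0.20 with a 95% confidence interval of −0.89 to 0.50. The 2 probes differed, with −1.55 on A_52_P303891 and −0.12 on A_55_P2148534 for MRL/lpr minus MRL/MpJ.

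The *Per* genes encode the inhibitors that close the first loop. *Per1* was at 1.77, 1.54, 1.09 and 0.800 times the channel median in MRL/lpr, 2.37, 2.91, 1.53 and 2.80 in Fn14ko and 1.95, 1.02, 2.60 and 0.833 in MRL/MpJ. All phenotypes overlapped, and in MRL/MpJ both Cy5 mice lay below both Cy3 mice. The log2 fold changes were −0.21 for MRL/lpr minus MRL/MpJ, −0.91 for MRL/lpr minus Fn14ko and 0.70 for Fn14ko minus MRL/MpJ (standard error 0.38 each, limma adjusted p = 0.693, 0.124 and 0.448). The last of these was −0.24 within Cy3 and 1.63 within Cy5. The other probe of the gene, A_55_P2019327, was 8.22 and 14.4 on the weak array and at most 0.133 in the other 10 samples. Its spot was not valid in all 12 samples and is not part of these values. With it, in the table with no filter, MRL/lpr against MRL/MpJ came to 1.54 instead of −0.21.

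**Figure D2:**
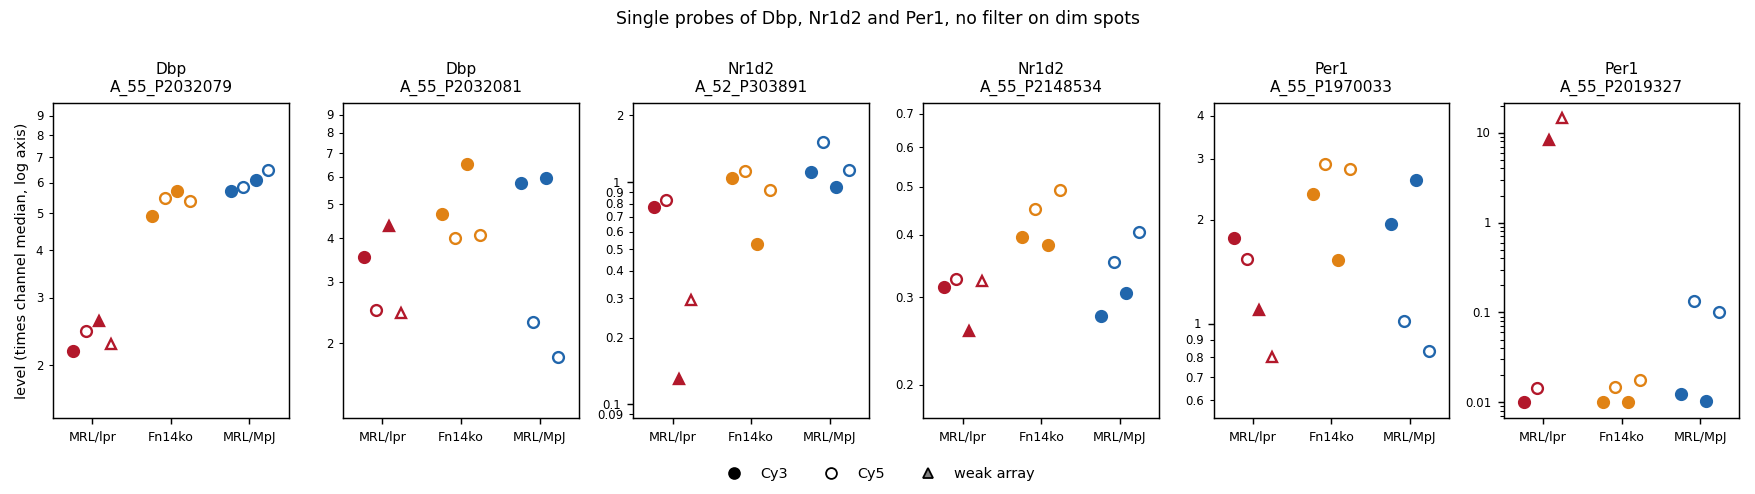
Levels of single probes of *Dbp*, *Nr1d2* and *Per1* in each sample, in multiples of the channel median on a log axis, with no filter on dim spots. Filled points are Cy3, open points Cy5 and triangles the weak array. The first *Dbp* probe separates MRL/lpr (2.18 to 2.61) from the other phenotypes (4.91 to 6.49), the second splits MRL/MpJ by dye, and the second *Per1* probe is bright only on the weak array (8.22 and 14.4).

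*Per2*, whose loss disturbs the daily rhythm of behaviour, was at 0.252, 0.209, 0.171 and 0.301 in MRL/lpr, 0.306, 0.260, 0.387 and 0.219 in Fn14ko and 0.190, 0.198, 0.235 and 0.170 in MRL/MpJ. The phenotypes overlapped, and no difference passed in 12 samples (Fn14ko minus MRL/MpJ 0.54, standard error 0.30, limma adjusted p = 0.425). Outside the weak array *Per2* was 1.22, 1.03, 1.58 and 0.877 in Fn14ko and 0.731, 0.538, 0.926 and 0.526 in MRL/MpJ, and it rose by 0.80 in Fn14ko (0.15, adjusted p = 0.00852). The exact permutation p of that difference was 0.0571, since the ranges overlap, and the 2 MRL/MpJ mice in Cy5 were not well above background.

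*Per3* was dim, well above background in 2 mice of each phenotype. It was at 0.0283, 0.0546, 0.157 and 0.387 in MRL/lpr, 0.0267, 0.0421, 0.0100 and 0.0255 in Fn14ko and 0.10, 0.335, 0.0612 and 0.206 in MRL/MpJ, where 0.0100 is the floor of 1% of the channel median. It was highest in the samples of the weak array and in the MRL/MpJ mice in Cy5, none of which was well above background. In 12 samples the log2 differences were −0.54 for MRL/lpr minus MRL/MpJ, 2.09 for MRL/lpr minus Fn14ko and −2.63 for Fn14ko minus MRL/MpJ (standard error 0.73 each), and none passed the threshold (limma adjusted p = 0.921, 0.0991 and 0.199). The exact permutation p of the last was 0.0286. In the 10 samples outside the weak array, where *Per3* still has no valid spot, it fell by 2.58 in Fn14ko (standard error 0.43, limma adjusted p = 0.00210) and by 1.71 in MRL/lpr (0.52, adjusted p = 0.0468) compared with MRL/MpJ. Within Cy3, where all but Fn14ko replicate 3 and MRL/lpr replicate 3 were well above background, Fn14ko differed from MRL/MpJ by −2.26, a value that includes the floor.

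*Arntl* and *Clock* encode the activators of the loop, and *Arntl* is the member that peaks opposite to *Dbp* and *Nr1d1*. *Arntl* was at 0.247, 0.268, 0.122 and 0.225 times the channel median in MRL/lpr, 0.248, 0.316, 0.394 and 0.295 in Fn14ko and 0.284, 0.322, 0.302 and 0.300 in MRL/MpJ. The 4 MRL/lpr mice lay below the 4 MRL/MpJ mice, and the log2 difference of −0.55 did not pass the threshold (standard error 0.30, limma adjusted p = 0.365, exact permutation p = 0.0286). Outside the weak array, the difference was −0.07, with a 95% confidence interval of −0.54 to 0.40 (adjusted p = 0.846). *Clock* was at 0.398, 0.392, 0.148 and 0.276 in MRL/lpr, 0.443, 0.449, 0.340 and 0.386 in Fn14ko and 0.419, 0.478, 0.389 and 0.622 in MRL/MpJ. The weak array held the 2 lowest samples. The difference of MRL/lpr from MRL/MpJ was −0.73 (0.31, adjusted p = 0.215) in 12 samples and −0.09, with an interval of −0.51 to 0.34, in the 10 outside the weak array. Both intervals rest on 2 MRL/lpr mice that share 1 array.

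The *Cry* genes encode the partners of the PER proteins. *Cry1* was dim, at 0.0261, 0.0359, 0.107 and 0.194 in MRL/lpr, 0.0367, 0.0441, 0.0328 and 0.0448 in Fn14ko and 0.0255, 0.108, 0.0267 and 0.0931 in MRL/MpJ. Its 4 highest samples were the 2 of the weak array and the 2 MRL/MpJ mice in Cy5, none of them well above background, and no difference passed (0.37, 0.76 and −0.38 in the 3 comparisons, standard error 0.71 each). *Cry2* was at 2.29, 2.27, 3.26 and 2.15 in MRL/lpr, 3.12, 3.23, 4.18 and 3.94 in Fn14ko and 2.78, 0.786, 2.80 and 0.738 in MRL/MpJ. All 4 Fn14ko mice lay above all MRL/MpJ mice, but the difference was 0.37 within Cy3 and 2.23 within Cy5. For both dyes together it was 1.3 (standard error 0.36, limma adjusted p = 0.118), and 1.37 (0.35, adjusted p = 0.0234) in the 10 samples outside the weak array. The other *Cry2* probe, A_55_P1953708, at most 0.276 in any sample and valid only outside the weak array, where it is part of the average, differed by −0.79 between Fn14ko and MRL/MpJ in 12 samples (exact permutation p = 0.171). The part of the dye in this result was not tested.

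Past the threshold of an adjusted p of 0.05 were 2 of 10 members in MRL/lpr against MRL/MpJ (*Dbp* and *Nr1d1*, both lower), 1 in MRL/lpr against Fn14ko (*Dbp*, lower) and 0 in Fn14ko against MRL/MpJ. In the filtered table, which tests 3 members, 9.17%, 3.98% and 0.519% of all 8864 genes passed in these comparisons, and in the table with no filter, which supplied the other 7, 2.46%, 6.83% and 0.145% of 29608 genes. At an unadjusted p under 0.05 limma gave 4, 5 and 3 members in the 3 comparisons, the last being *Per3*, *Nr1d1* and *Cry2*. The t-test named in the study's methods gave 3, 3 and 2 at an unadjusted p under 0.05, which the study used together with a fold cut-off. After adjustment, which the study does not describe, that t-test gave 0 members in each comparison. It then called 0, 0 and 8 of all 8864 genes in the filtered table and 0, 0 and 4 of 29608 with no filter. Without the weak array 3, 1 and 4 members passed, against 15.7%, 9.12% and 21.1% of 17936 genes with valid spots and 11.8%, 9.23% and 13.9% of all genes in the table with no filter, which supplied *Per3*. In MRL/lpr against MRL/MpJ in 12 samples, the calls were thus 1 of 3 members (*Dbp*) in the filtered table and 1 of 7 (*Nr1d1*) with no filter, and with so few members they describe these single genes and not the list. The median log2 fold change over the 10 members was −0.55, −0.56 and −0.08, compared with −0.01, 0.03 and −0.16 over all genes of the filtered table and 0.21, 1.34 and −0.97 over all genes with no filter. The values of the 7 members from the table with no filter are to be read beside these last medians.

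**Figure D3:**
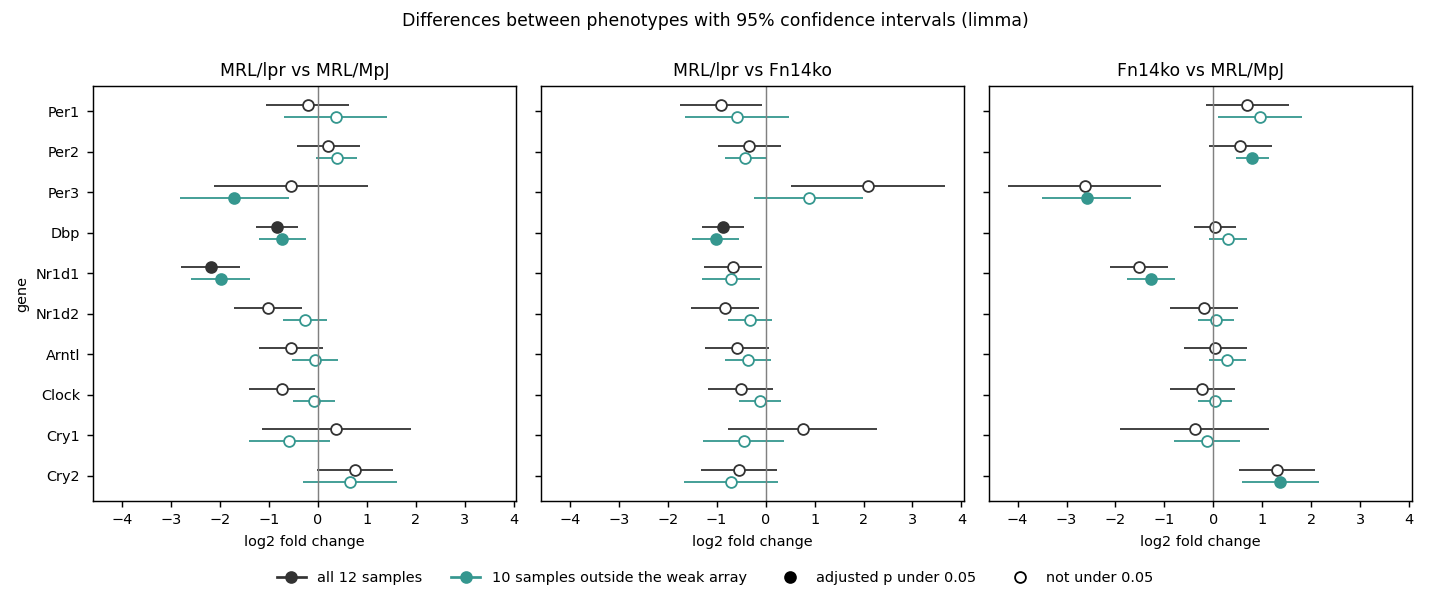
Log2 fold change of each clock gene in the 3 comparisons, with 95% confidence intervals from limma, in all 12 samples (black) and in the 10 samples outside the weak array (green). Filled points have an adjusted p under 0.05. *Nr1d1* in MRL/lpr against MRL/MpJ lies at −2.19 and −1.98, and *Dbp* is below 0 in both comparisons of MRL/lpr, while the intervals of *Arntl* and *Clock* in the 10 samples include 0.

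The 12 samples were also described one by one, by the distance of each log2 level from the median of the gene over samples. *Dbp* and *Nr1d1* were below their medians in all 4 MRL/lpr mice, by 0.36 to 0.91 and by 0.23 to 0.71. In MRL/MpJ *Nr1d1* was above its median in all 4, by 1.39 to 2.10, whereas *Dbp* was above it in the Cy3 mice (0.37 and 0.44) and below it in the Cy5 mice (−0.12 and −0.09). Of 6 genes grouped for this description (*Per1* to *Per3*, *Dbp*, *Nr1d1* and *Nr1d2*), 4 to 6 lay below their medians in each MRL/lpr mouse, 1 to 3 in each Fn14ko mouse and 1 to 3 in each MRL/MpJ mouse. The hours at which these 6 peak were not measured and need not be the same, so the counts are no reading of phase. The mean of *Arntl* and *Clock* was −0.11 and −0.06 in MRL/lpr replicates 1 and 2, −1.33 and −0.44 on the weak array, −0.03 to 0.16 in Fn14ko and 0.02 to 0.35 in MRL/MpJ. Fn14ko replicate 3 was above the medians in *Nr1d1* (1.00), *Per2* (0.77), *Cry2* (0.58), *Dbp* (0.46) and *Arntl* (0.45), and below them in *Per1* (−0.11) and *Nr1d2* (−0.54). The levels were also set against their medians over the 10 samples outside the weak array. There the mean of the 2 *Dbp* probes stood at −0.81 and −1.02 in MRL/lpr and at −0.76 and −0.55 in the MRL/MpJ mice in Cy5. *Nr1d1* stood at −0.86 and −1.23 in the former and at 1.00 and 0.66 in the latter. The nearness of these Cy5 mice to MRL/lpr in *Dbp* was not shared by its 2 probes. On the scale of 12 samples they were at 2.30 and 1.83 on A_55_P2032081 but at 5.86 and 6.49 on A_55_P2032079. All 4 MRL/lpr mice were at 2.18 to 2.61 on the latter probe. Around the medians of the 10 samples, 4 of the 6 genes lay below in MRL/MpJ replicate 4. No score over the members was tested.

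**Figure D4:**
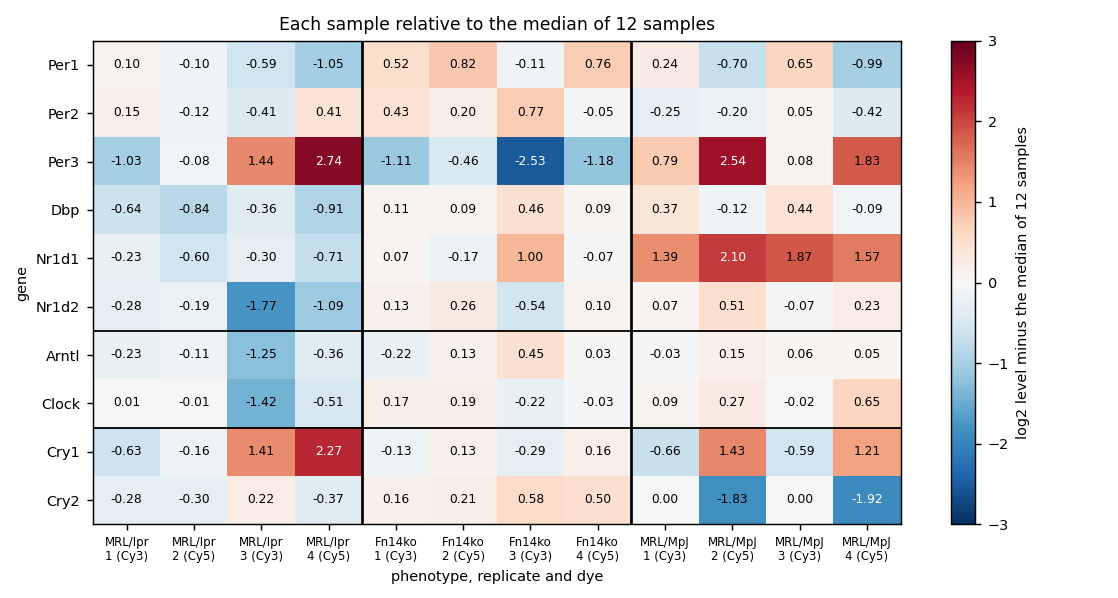
Log2 level of each clock gene minus its median over the 12 samples, for each mouse (columns, with replicate and dye) and gene (rows). The rows are grouped into *Per1* to *Per3* with *Dbp*, *Nr1d1* and *Nr1d2*, then *Arntl* with *Clock*, then the *Cry* genes. Red is above and blue below the median. *Nr1d1* is 1.39 to 2.10 above its median in MRL/MpJ, and the dim genes *Per3* and *Cry1* are raised on the weak array and in the Cy5 mice of MRL/MpJ.

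A further 22 genes of the clock pathway were followed, all of them on the array, 11 in the filtered table. In MRL/lpr compared with MRL/MpJ 4 of 22 passed the threshold, all lower, in MRL/lpr compared with Fn14ko 0, and in Fn14ko compared with MRL/MpJ 0. With the array as a random block, 0 of the 22 passed in the first comparison (limma adjusted p = 0.294 for *Hlf*, 0.261 for *Usp2*, 0.294 for *Csnk1e* and 0.0958 for *Rorb*). The estimated correlation of that block was 0.71 in the filtered table and 0.57 with no filter. Without that block, 9.17% of all genes passed in the first comparison in the filtered table and 2.46% with no filter. With it, 7 of 8864 and 106 of 29608 genes passed. At an unadjusted p under 0.05 limma gave 5, 6 and 3 of the 22, and the t-test named in the study's methods 5, 3 and 3. After adjustment that t-test gave 0 in each comparison. *Hlf*, which like *Dbp* encodes a PAR bZIP factor, was at 1.49, 1.55, 1.54 and 1.32 times the channel median in MRL/lpr, 2.31, 2.32, 2.68 and 2.72 in Fn14ko and 4.45, 2.68, 2.99 and 3.00 in MRL/MpJ. All MRL/lpr mice lay below all others, and *Hlf* fell by 1.12 compared with MRL/MpJ (standard error 0.21, limma adjusted p = 0.0121). *Usp2*, a deubiquitinase whose transcript cycles, was at 1.17, 1.04, 0.268 and 0.577 in MRL/lpr, 1.29, 1.75, 1.56 and 2.00 in Fn14ko and 1.86, 2.93, 1.64 and 2.25 in MRL/MpJ. It fell by 1.68 (0.38, adjusted p = 0.0261), and the fall was smaller without the weak array, 0.78 (0.18, adjusted p = 0.0175). *Csnk1e*, a kinase of the PER proteins, fell by 0.91 (0.23, adjusted p = 0.0368) and was at −0.43 without that array (0.20, adjusted p = 0.164). *Rorb*, of the ROR family of nuclear receptors, was at 0.0973, 0.112, 0.206 and 0.331 in MRL/lpr, 0.270, 0.324, 0.199 and 0.309 in Fn14ko and 0.434, 0.797, 0.584 and 0.655 in MRL/MpJ, and fell by 1.87 (0.36, adjusted p = 0.0163). *Rorb* is also known as a gene of layer 4 of the cerebral cortex. The third PAR bZIP gene, *Tef*, was at −1.09 (0.51, adjusted p = 0.148) in this comparison and at 0.16 (0.19, adjusted p = 0.561) without the weak array. Without the weak array 7, 2 and 5 of the 22 passed in the 3 comparisons, compared with 15.7%, 9.12% and 21.1% of all 17936 genes with valid spots, so that the last 2 counts lie near the share of all genes. In the first these were *Npas2*, *Rorb*, *Bhlhe41*, *Hlf*, *Gsk3b* and *Usp2*, which fell, and *Nampt*, which rose by 0.88 (0.19, adjusted p = 0.0121). *Npas2*, a paralog of *Clock*, had no valid spot and was well above background in 0 of these 2 MRL/lpr mice, 1 of 4 Fn14ko mice and 2 of 4 MRL/MpJ mice, so no fold is given for it. In MRL/lpr against Fn14ko they were *Rorb* and *Usp2*, both lower, and in Fn14ko against MRL/MpJ *Npas2*, *Rorb* and *Bhlhe41*, lower, and *Tef* and *Cipc*, higher. *Hlf*, *Usp2* and *Rorb* kept their direction in MRL/lpr against MRL/MpJ under all alternatives run, and were past the threshold under 23 of 29, 17 of 28 and 18 of 28.

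**Figure D5:**
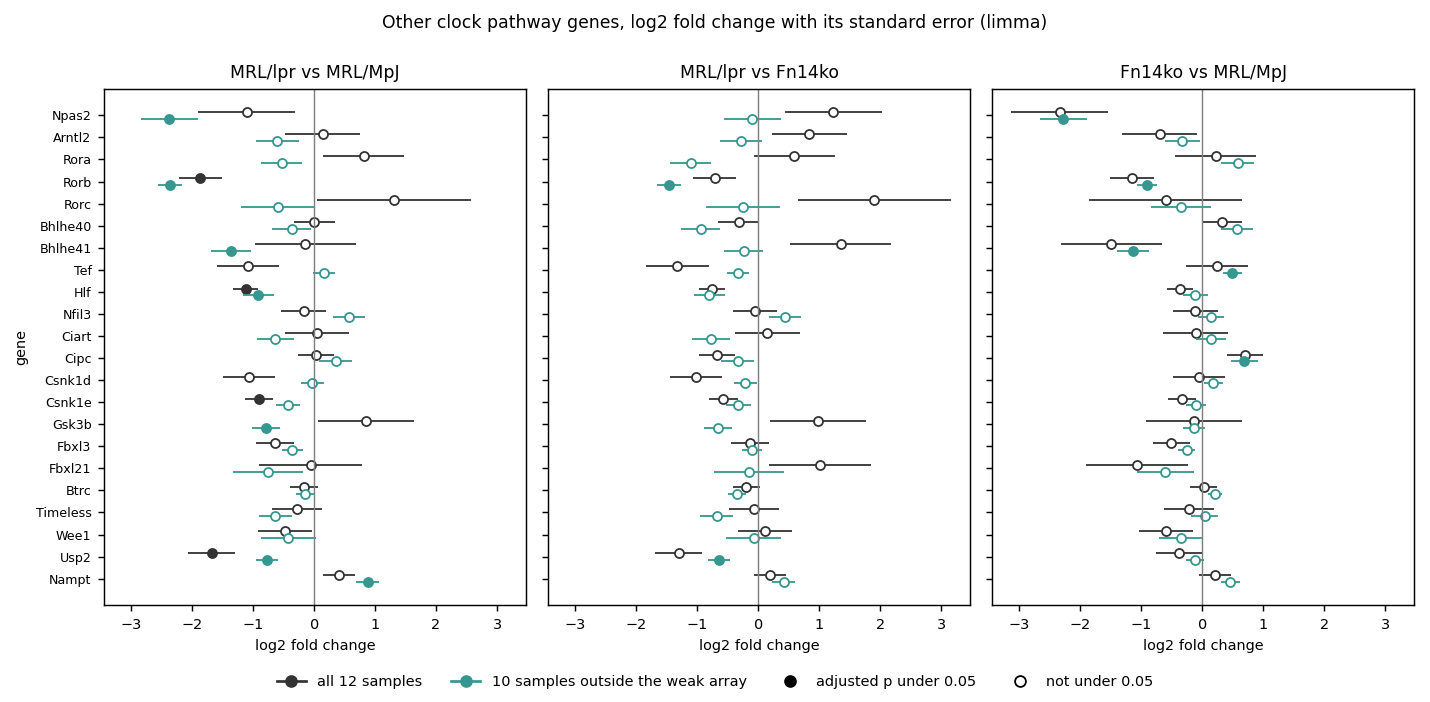
Log2 fold change of 22 further clock pathway genes in the 3 comparisons, with the standard error from limma, in all 12 samples (black) and in the 10 outside the weak array (green). Filled points have an adjusted p under 0.05. *Hlf*, *Usp2* and *Rorb* lie below 0 in MRL/lpr against MRL/MpJ in both sets of samples, by 0.78 to 2.36.

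Markers of brain regions and of other tissues differed between the phenotypes as well. Of 9 markers of the hippocampus, 5 were higher and 0 lower in MRL/lpr than in MRL/MpJ (median log2 fold change 2.47), among them *Dsp* (4.23), *Prox1* (3.36) and *Spink8* (2.85), the first and second being genes of dentate granule cells. Of all genes, 9.17% passed in this comparison in the filtered table and 2.46% with no filter. With the array as a random block, 7 of 8864 and 106 of 29608 genes passed, and 4 and 53 against Fn14ko. The summed level of the 9 hippocampal markers was 8.08 to 18.9 in MRL/lpr and 8.66 to 15.4 in MRL/MpJ in 12 samples, and 62.2 to 71.1 against 34.2 to 41.9 without the weak array. Of 7 markers of the cerebral cortex 2, *Lamp5* (−3.17) and *Cux2* (−2.84), were lower and 0 higher, with a summed level of 1.41 to 5.23 against 5.42 to 7.98. Of 10 markers of the choroid plexus, *Ttr* alone was past the threshold, higher by 3.33 (standard error 0.88, limma adjusted p = 0.0399), and their summed level was 9.81 to 39.1 against 1.03 to 2.88. Of the hypothalamic, thalamic and blood markers 0 passed by limma (2, 0 and 1 at an unadjusted p under 0.05). By the t-test named in the study's methods 0 passed after adjustment (0, 0 and 1 at an unadjusted p under 0.05). Against Fn14ko, 6 hippocampal, 4 choroid plexus and 1 thalamic marker were higher in MRL/lpr, and 2 cortical ones lower. In that comparison 3.98% of all genes passed in the filtered table and 6.83% with no filter. The table with no filter had a median log2 fold change of 1.34 over all genes there, and 21.3% of its calls were lower. In Fn14ko against MRL/MpJ in 12 samples, none of these lists held a gene past the adjusted threshold by limma or by that t-test. At an unadjusted p under 0.05 limma gave 1 hippocampal, 2 thalamic, 4 cortical and 1 blood marker, and the t-test 0, 1, 3 and 1. In the 10 samples outside the weak array 8 hippocampal, 5 choroid plexus and 4 of 5 blood markers were higher in MRL/lpr than in MRL/MpJ and 4 of 7 cortical ones lower, where 15.7% of all genes with valid spots passed. The part of these differences in the lower *Dbp*, *Nr1d1*, *Hlf* and *Rorb* was not tested, and in such bulk samples fewer cells of a type and less RNA per cell cannot be told apart.

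Of 10 immediate early genes, which follow neuronal activity, 3 were lower in MRL/lpr than in MRL/MpJ, *Arc* (−2.96), *Egr1* (−1.77) and *Fosb* (−1.13), and 0 higher, while *Fos* was at 0.33 (standard error 0.45, limma adjusted p = 0.595). In this comparison 9.17% of all genes passed in the filtered table and 2.46% with no filter. With the array as a random block, 7 of 8864 and 106 of 29608 genes passed. Without the weak array *Fosb* alone of the 10 passed (−1.28, adjusted p = 0.0137), with *Arc* at −1.40 (0.44, adjusted p = 0.0555) and *Egr1* at −0.79 (0.44, adjusted p = 0.229). There 15.7% of all genes with valid spots passed. Against Fn14ko, *Dusp1* was higher (2.68, and 1.44 without the weak array). Of all genes, 3.98% passed there in the filtered table, 6.83% with no filter and 9.12% of those with valid spots without the weak array. In Fn14ko against MRL/MpJ, limma called 0 of the 10 immediate early genes (3 at an unadjusted p under 0.05). The t-test named in the study's methods called 0 after adjustment (4 at an unadjusted p under 0.05). Without the weak array 3 were lower in Fn14ko, *Ier2* (−2.30), *Dusp1* (−1.21) and *Fosb* (−0.81), where 21.1% of all genes with valid spots passed. Of 9 glucocorticoid targets, which follow the daily rhythm of corticosterone, 0 passed in any comparison in 12 samples, by limma or by the methods' t-test after adjustment. At an unadjusted p under 0.05 limma gave 1, 3 and 0 of them, and the t-test 1, 1 and 1. *Fkbp5* was at 0.16, −0.08 and 0.24 in the 3 comparisons (standard error 0.39 each). Without the weak array *Cdkn1a* was lower in MRL/lpr than in MRL/MpJ and Fn14ko (−1.52 and −1.27), and *Sgk1* was higher in Fn14ko than in MRL/MpJ (0.96). Their part in the levels of the clock genes was not tested.

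The genes most like *Dbp* over the 10 samples outside the weak array were sought among 17935 others with valid spots. The 5 with the highest Pearson correlation were *Mtcl1* (r = 0.983), *Clstn3* (0.978), *Usp13* (0.977), *Urm1* (0.975) and *Osbpl1a* (0.974). Like *Dbp* in these samples, all 5 were low in MRL/lpr and in the 2 MRL/MpJ mice in Cy5. *Mtcl1*, for example, was at 1.88 and 1.89 in MRL/lpr, 5.36 to 7.10 in Fn14ko, 6.56 and 7.56 in the Cy3 mice of MRL/MpJ and 2.01 and 2.27 in its Cy5 mice. The likeness thus follows the dye within MRL/MpJ as well as the phenotype, and *Dbp* itself, as the mean of its 2 probes, was there at 22.0, 11.1, 23.8 and 12.9. On the scale of 12 samples this dye split stood in A_55_P2032081 (5.74, 2.30, 5.96 and 1.83). It was absent from A_55_P2032079 (5.71, 5.86, 6.09 and 6.49). The order below is therefore one of likeness to the mean of the 2 probes. The 5% of genes highest in this order had an r of 0.726 or more. Of the other members, *Per3* had no valid spot and was not ranked. *Arntl* was among the highest 5%, at place 709 (r = 0.754). The remaining members came lower, with *Cry2* at 1547 (0.639), *Per1* at 2046 (0.584), *Per2* at 2217 (0.569), *Nr1d1* at 4007 (0.401), *Nr1d2* at 5610 (0.231), *Clock* at 6322 (0.147) and *Cry1* at 11035 (−0.340). These correlations describe samples that share arrays, dyes and slides.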

How the data were processed

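Hippocampal RNA of 12 female mice was hybridized to 6 Agilent arrays, 2 mice of 1 phenotype on each. The deposited files hold the intensity of each spot as scanned and read by Agilent Feature Extraction (version not given in the sources used here), not normalized between samples by the authors. Each foreground had its local background taken off, flagged spots and those below 2 times their background were dropped, and the 10877 spots valid in all 12 samples (8864 genes) were divided by the channel median. Spots were averaged to probes and probes to genes, log2 was taken, and limma 3.58.1 (R 4.3.3) was fitted over all 12 samples with the dye as covariate, with Benjamini-Hochberg adjustment and a threshold of 0.05. A table with no filter, a floor of 1% of the channel median and the scale of those valid spots served members without a valid spot, and that scale was chosen after its values had been seen. Exact permutation tests were two-sided. Like the limma fit without an array block, they take the mice as independent, although mice of a phenotype shared arrays in pairs. Replicate numbers of different phenotypes did not pair the samples. All 10 members were named, with up to 10 called clock pathway genes, up to 3 called genes of each other list by size of change, *Ttr*, *Fkbp5* and *Fos*, and the 5 genes most correlated with *Dbp*. The members and lists were chosen with earlier results of these data known. The result of 1 marker list is not reported here. The fit was tested on simulated data with independent noise in each sample and no array effect. That test therefore cannot show how the fit behaves when mice share arrays. Promoter windows came from RefSeq (GRCm38.p6), and probe positions (mm9) from the files. Background correction, normalization, filters, blocks, weights and left-out samples were varied.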

Additional observations from a re-analysis of the deposited data

Results flagged for a closer look

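Of 30 groups of 4 mice checked for a mouse far from the others (10 members in 3 phenotypes), 2 held one, and chance gives about 1 in 20. *Dbp* in Fn14ko replicate 3 was 6.12 times the channel median, and the nearest of the other Fn14ko mice was at 4.80, a gap of 0.943 of the range of the group. *Cry2* in MRL/lpr replicate 3, on the weak array, was 3.26 times the channel median and the nearest at 2.29, a gap of 0.849 of the range. Both gaps exceed the 95% critical value of Dixon's test for 4 samples.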

How the results depend on the processing

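The lower *Dbp* and *Nr1d1* of MRL/lpr kept their direction under all alternatives run. Against MRL/MpJ, *Dbp* was past the threshold under 12 of 29 alternatives (adjusted p = 0.00126 to 0.544) and *Nr1d1* under 24 of 28 (3.95e-07 to 0.344), and against Fn14ko *Dbp* under 9 of 29 (0.00228 to 0.481). Such tallies include the fits that leave out 1 mouse. They also count a repeat of the reported fit: the scale of all spots for genes of the filtered table, and no filter for the others. The cause of the changes below was not tested. Alternatives chosen after seeing the data were negative-control background, the scale of all spots, 1 dye alone, and the array as a random block without the weak array. The number of arrays limits the precision, and *Per3* and *Cry1* lay near background.

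With the replicate number as a block, which the labels do not tie to a shared batch and whose same-number correlations ran from −0.40 to 0.50, 1, 0 and 0 members passed in MRL/lpr against MRL/MpJ, MRL/lpr against Fn14ko and Fn14ko against MRL/MpJ. The adjusted p under this block was 0.0527 and 0.0641 for *Dbp* and 0.00157 for *Nr1d1* against MRL/MpJ.

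Of members in MRL/lpr against MRL/MpJ (2 in the reported fit), 1 passed with no filter, quantile normalization, loess and Aquantile, the array as a random block, only the 2 groups compared or negative-control background, 0 with spots well above background in all samples, the t-test of the methods, or Cy3 or Cy5 alone, and 5 with estimated sample weights. Against Fn14ko (1), 0 passed with spots well above background, quantile, loess and Aquantile, the random block, 2 groups, the t-test, negative-control background, Cy3 or Cy5, 3 with Agilent's processed signal, 7 with weights and 4 on the scale of all spots. In Fn14ko against MRL/MpJ (0), 1 passed with normexp, 3 with 2 groups (where 2308 of 8864 and 4329 of 29608 genes passed), 4 without the weak array (21.1% of 17936 genes), 4 with weights and 5 with the random block without the weak array. Leaving out 1 mouse gave 1 to 4, 0 to 4 and 0 to 1 members.

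Of the 22 other clock genes in MRL/lpr against MRL/MpJ (4), 2 passed with spots well above background, 0 with the random block, 2 groups, the t-test, Cy3 or Cy5, and 7 without the weak array, with or without the random block. Against Fn14ko (0), 1 passed with no filter, normexp, quantile or loess and Aquantile, 2 with Agilent's signal or without the weak array, 3 on the scale of all spots, 6 with the random block without the weak array and 7 with weights. In Fn14ko against MRL/MpJ (0), 3 passed with 2 groups, 5 without the weak array, 6 with the random block there and 8 with weights. Leaving out 1 mouse gave 0 to 6, 0 to 8 and 0 to 0. The weights called 16533, 25188 and 21054 of all 29608 genes with no filter, and the random block without the weak array had an estimated correlation of −0.26 (filtered) and −0.57 (no filter), below 0, and called 17788, 6130 and 20535, so their counts are given as values alone.

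Directions turned in uncalled differences as follows. In MRL/lpr against MRL/MpJ, *Per1* was 1.54 with no filter, 0.36 without the weak array, with or without the random block, and 0.27 in Cy5. *Per2* was −0.19 with quantile, −0.31 with loess and Aquantile, −0.32 on the scale of all spots and −0.025 in Cy3. *Per3* was 0.035 with normexp, 0.12 with Agilent's signal and 0.60 with weights, *Arntl* 0.091 with normexp, and *Cry2* −0.61 with Agilent's signal and −0.030 in Cy3. *Cry1* was −0.21 with quantile, −0.18 with loess and Aquantile, −0.58 without the weak array, with or without the random block, −0.16 on the scale of all spots and −0.27 in Cy5. Against Fn14ko, *Per1* was 0.93 with no filter, *Per2* 0.15 with normexp, 0.050 with weights and 0.069 in Cy5, *Arntl* 0.046 and *Clock* 0.018 with normexp, and *Cry1* −1.12 with quantile, −0.71 with loess and Aquantile, −0.45 without the weak array, with or without the random block, −0.19 with negative-control background and −0.70 on the scale of all spots. In Fn14ko against MRL/MpJ, Agilent's signal gave *Per1* −0.51, *Dbp* −0.31, *Nr1d2* 0.16, *Clock* 0.19 and *Cry1* 0.18, and Cy3 alone gave *Per1* −0.24, *Dbp* −0.12 and *Cry1* 0.41. There *Dbp* was −0.087 and *Cry1* 0.90 with negative-control background, *Nr1d2* 0.056 and *Clock* 0.028 without the weak array, with or without the random block, *Nr1d2* 0.72, *Clock* 0.69 and *Cry1* 0.54 on the scale of all spots, *Arntl* −0.057 with weights and −0.025 in Cy5, and *Cry1* 0.91 with quantile and 0.53 with loess and Aquantile. Leaving out 1 mouse gave −0.44 to 0.045 for *Per1*, −1.04 to 0.016 for *Per3* and −0.068 to 0.89 for *Cry1* in MRL/lpr against MRL/MpJ, and −0.13 to 0.12 for *Arntl* in Fn14ko against MRL/MpJ.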
